A study of Mus musculus with 11 samples.

Results

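The genes described here are 40 genes whose products copy DNA in S phase or divide the cell in mitosis. They were chosen by symbol, from a fixed list of replication, cyclin, spindle and centromere genes, and not by their values. Earlier results of these data were known when the list was made. All 40 were found once each among the 23286 gene rows of the deposited table, by matching RefSeq transcript accessions to symbols. RNA-seq of polyA RNA was made from MEPMs, mouse embryonic palatal mesenchyme cells, which were cultured cells from the palate of E13.5 embryos. Cells were grown in 10% serum and held overnight in 0.1% serum. They were then left unstimulated (4 libraries), or treated for 1 h with 30 ng/mL PDGFA (4 libraries) or with 50 ng/mL FGF1 plus 1 µg/mL heparin (3 libraries). Overnight serum withdrawal was common to all 3 groups, and heparin was given only with FGF1, so FGF1 and heparin cannot be told apart. No genotype, strain or sex is given in the labels. No group was kept in full serum, so the effect of starvation on these genes was not measured.

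A resting cell that is given a growth factor first induces immediate early genes, then D-type cyclins. CDK activity then frees E2F factors from the RB family, and E2F switches on the genes of origin licensing and DNA synthesis. Mitotic genes follow in G2 through B-MYB and FOXM1, which work with the MuvB core at CHR elements. In resting cells the same MuvB core, joined to an RB relative and a repressive E2F, forms the DREAM complex and holds both sets of genes down. These steps take many hours in cultured fibroblasts, and a sample at 1 h lies early in them.

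Many promoters of these genes carried sequence words of that system, and 5 are shown because they hold them upstream of the transcript start. The RefSeq table of assembly GRCm38.p6 held a promoter window, 250 bases before to 50 after the start, for 32 of the 40 genes. Searched on both strands were the CHR word TTTGAA, the CCAAT-box word CCAAT, and 4 E2F words, TTTCCCGC, TTTGGCGC, TTTCGCGC and TTTGCCGC. E2F words can overlap each other, as the first pair does in Mcm6. In each sequence below, the 150 bases that end just before the start are given 5′ to 3′ on the gene's strand, with matches in capitals. A match on the other strand reads as its reverse complement, so CHR can appear as TTCAAA and CCAAT as ATTGG. The stretches lie at chr1:128359706-128359855 on the minus strand for Mcm6, chrX:93632156-93632305 (minus) for Pola1, chr4:118437344-118437493 (minus) for Cdc20, chr19:37376232-37376381 (plus) for Kif11 and chr10:69352913-69353062 (minus) for Cdk1.
Mcm6: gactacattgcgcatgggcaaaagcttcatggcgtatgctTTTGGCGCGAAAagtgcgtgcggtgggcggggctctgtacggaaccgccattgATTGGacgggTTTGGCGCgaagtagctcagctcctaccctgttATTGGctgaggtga
Pola1: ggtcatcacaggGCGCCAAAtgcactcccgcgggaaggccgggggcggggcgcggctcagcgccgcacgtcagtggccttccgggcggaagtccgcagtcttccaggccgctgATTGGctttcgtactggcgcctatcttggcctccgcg
Cdc20: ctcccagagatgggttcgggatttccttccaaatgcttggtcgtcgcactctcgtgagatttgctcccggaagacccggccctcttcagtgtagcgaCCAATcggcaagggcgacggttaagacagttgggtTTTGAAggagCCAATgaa
Kif11: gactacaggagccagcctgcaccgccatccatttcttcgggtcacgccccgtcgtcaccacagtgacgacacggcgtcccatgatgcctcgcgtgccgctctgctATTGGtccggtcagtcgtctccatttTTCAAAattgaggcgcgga
Cdk1: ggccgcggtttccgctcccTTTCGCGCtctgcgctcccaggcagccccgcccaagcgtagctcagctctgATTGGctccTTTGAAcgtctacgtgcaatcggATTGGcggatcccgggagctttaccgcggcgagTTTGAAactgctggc
Mcm6 and Pola1, genes of the replicative helicase and of DNA polymerase alpha, show E2F words. Cdc20 and Kif11, a mitotic ubiquitin ligase activator and a spindle motor, show CHR, and Cdk1, the mitotic kinase, shows both kinds.

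Over all windows the words divided the genes by phase. An E2F word stood in 8 of 16 S phase genes (50.0%) and in 1 of 16 mitosis genes (6.25%), Cdk1. It stood in 2.6% of all 27025 genes with windows of the same length, each gene counted over all its windows. CHR stood in 12 of 16 mitosis genes (75%) and in 1 of 16 S phase genes, Mcm2, against 20.2% of all genes. CCAAT stood in 15 mitosis genes (93.8%) and 11 S phase genes (68.8%), against 41.1% of all genes. The windows of E2f1, Tyms, Ccne1 and Birc5 held none of these words. The E2f1 window, from base 154569377 on the minus strand, lay wholly inside the gene's own row, which runs to 154569852. The Cdc6 window, from base 98907901 on the plus strand, lay inside its row too, which begins at 98907889. Both genes are among the 16 S phase genes. Bases upstream of their rows were not searched, so the E2f1 result does not describe that sequence. Windows of different genes differ in base composition, and these shares are descriptions of letters, not of bound sites.

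**Figure D1:**
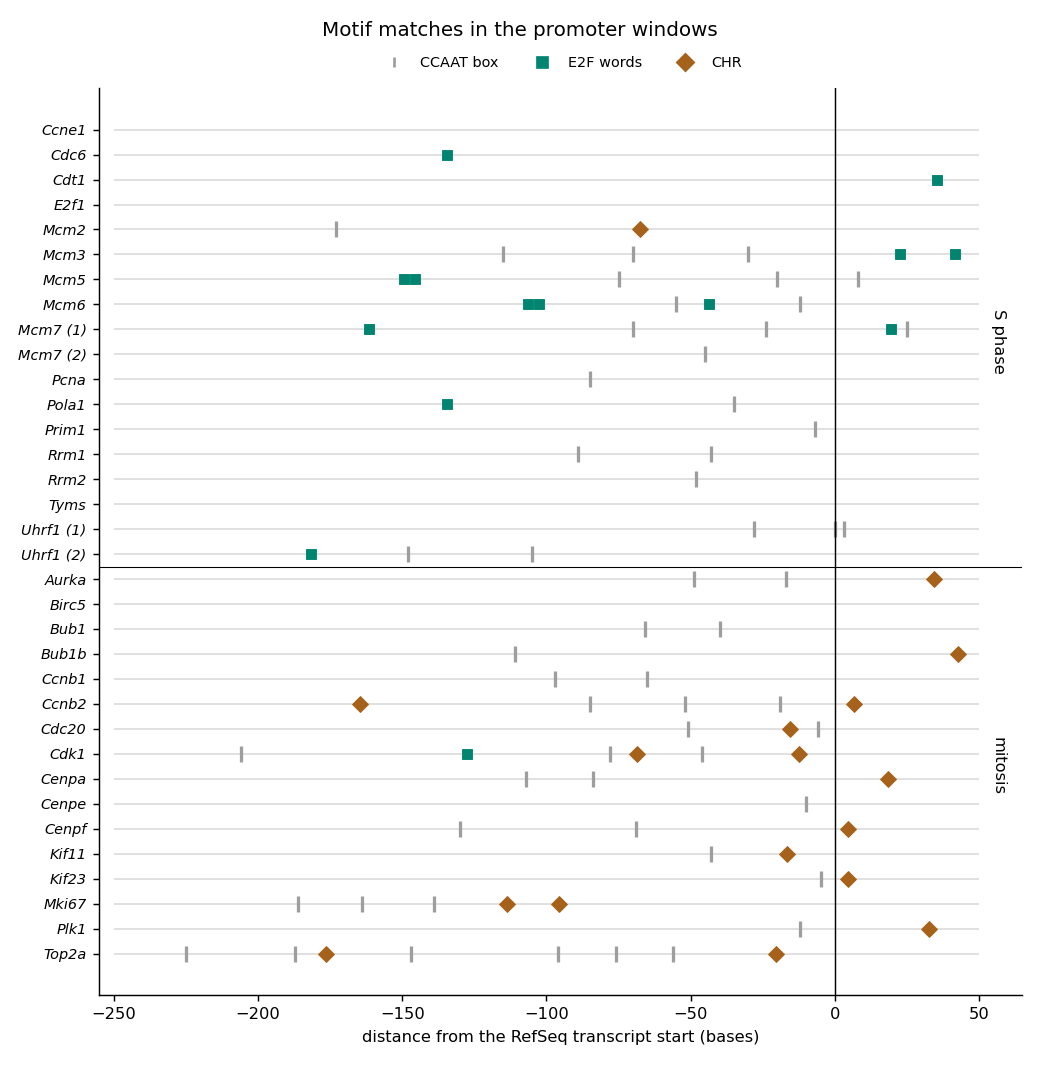
Positions of the words in the promoter windows of 32 genes; the x axis is the distance in bases from the RefSeq transcript start, and a gene with more than 1 start has a numbered line for each. E2F words (squares) lie mostly in the upper block of S phase genes, and CHR (diamonds) mostly in the lower block of mitosis genes.

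Each gene had 1 FPKM value per group (fragment counts scaled to transcript length and library total). It was estimated by the authors from all libraries of the group, and its deposited bounds are printed here in brackets. No values per library were used, so there is no SD and no p-value, and depth is unknown. Nothing in the labels says whether libraries of a group came from separate cultures or litters. A gene was called higher or lower only where the bracketed intervals of both groups lay wholly apart. This needed a row with at least 1 FPKM in at least 1 group, which 11702 rows passed and all 40 genes among them. In bulk RNA, fewer cycling cells and less RNA per cycling cell cannot be told apart. The cells had the mesenchymal transcripts of their label: Prrx1 stood at 233, 206 and 228 FPKM in starved, PDGFA and FGF1 cells, Pdgfra, the PDGFA receptor, at 3.87, 3.52 and 2.46, and the palate factor Osr2 at 3.73, 3.81 and 2.94. The palate gene Tbx22 was under 1 FPKM in each group, and the Col1a1 row had a failed estimate. Of the other markers, 7 of 8 epithelial, 3 of 5 endothelial and all 4 measured blood and macrophage genes were under 1 FPKM in each group. So were 4 of 6 glia and neuron genes, but not Tubb3 (37.0, 49.8 and 44.8 FPKM), and 2 of 9 skeletal muscle genes, the highest being Acta1 (17.2, 87.5 and 24.6). The check that the ligands acted was the immediate early gene Egr1, chosen with earlier results of these data known. It stood at 11.4, 49.7 and 116 FPKM, with all 3 intervals apart.

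Every S phase and mitosis gene was expressed in the starved cells. Levels ran from 1.62 FPKM for Cdc6 to 41.1 for Rrm1, with a median of 13.2, beside a median of 11.7 over the compared rows. After PDGFA the median was 14.3 FPKM and after FGF1 it was 13.6. The summed level of the 40 genes was 530.0 FPKM in starved, 570.3 in PDGFA and 539 in FGF1 cells, which was 0.137%, 0.136% and 0.130% of all FPKM in each group. The order of the genes was also alike: Rrm1 and Rrm2 came first, and Ccne2, Pola1, Cenpf and Cdc6 last, in each group. Neighbours in that order had overlapping intervals.

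**Figure D2:**
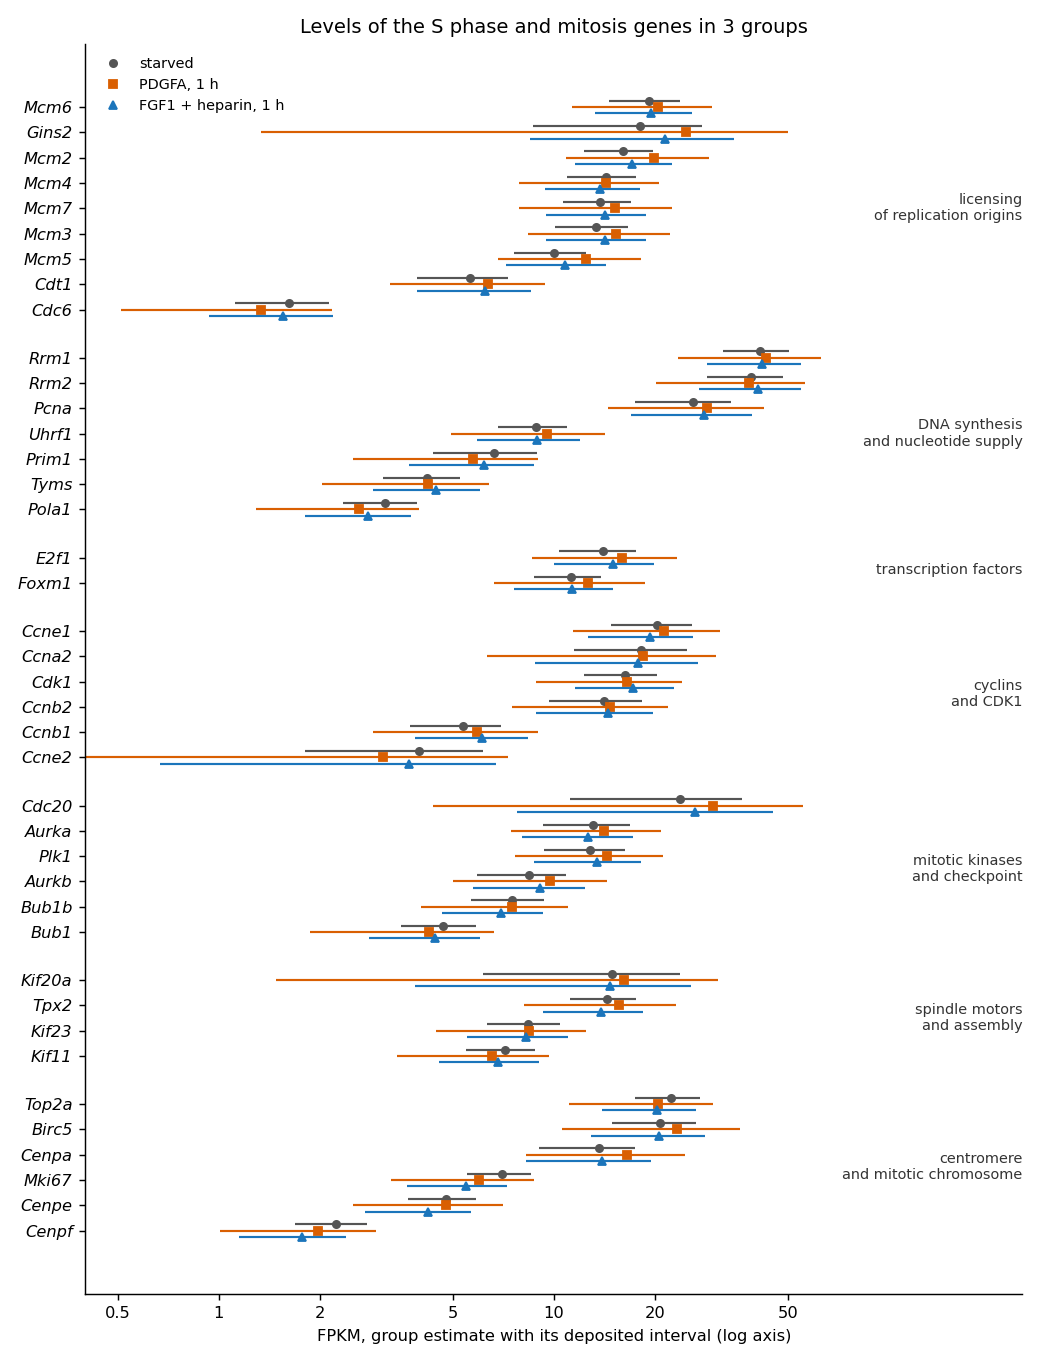
FPKM of each of the 40 genes (log axis), with the deposited interval as a line, in starved cells (circles) and after 1 h of PDGFA (squares) or FGF1 with heparin (triangles), grouped by role. The 3 intervals of every gene overlap, and the lower bound of Ccne2 with PDGFA is 0, off the axis.

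None of the 40 genes was called in any of the 3 comparisons. With PDGFA 0 of 40 were called, where 0.308% of all compared rows were. With FGF1 0 of 40 were called, where 0.555% of all rows were (0.538% higher and 0.0171% lower). Between FGF1 and PDGFA 0 of 40 were called, where 0.12% were (0.0256% higher and 0.094% lower). At those background shares a count of 0 among 40 genes is near the background and says nothing particular about these genes. The FGF1 value lay within 10% of the starved value for 32 of 40 genes and within 25% for all 40. The PDGFA value lay within 10% for 20 genes and within 25% for 38. On the log2 scale, 67.5% of the 40 genes lay within 0.1 of the starved value with FGF1, beside 55.1% of all compared rows. With PDGFA 30.0% did, beside 33.9% of all rows. With PDGFA only the Mcm2 and Mcm5 values, and with FGF1 only the Mki67 value, lay outside the interval of the starved cells.

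The intervals set what could have been seen. With each interval kept in proportion to its value, the median gene would have needed a 2.39-fold rise to be called with PDGFA (39 genes). With FGF1 it would have needed a 1.92-fold rise (40 genes). A call of a fall would have needed 1.99-fold and 1.798-fold. The smallest callable rise of any of the 40 was 2.23-fold with PDGFA and 1.77-fold with FGF1, and rises below these were not detectable. For Rrm1 the outermost bounds allow a ratio of 0.466 to 1.96 with PDGFA and of 0.572 to 1.72 with FGF1. For Mki67 they allow 0.383 to 1.58 and 0.427 to 1.32.

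Origin licensing prepares the DNA for copying. CDC6 and CDT1 load the MCM2-7 helicase ring onto origins, and GINS2 belongs to the complex that helps activate it. Mcm6 had the highest level of the role in starved cells, with 19.2 FPKM [14.6 to 23.8] in starved, 20.5 [11.3 to 29.6] in PDGFA and 19.5 [13.2 to 25.8] in FGF1 cells. The 6 ring subunits are used in equal number, and their levels lay within 1.92-fold of each other in starved cells, from Mcm5 at 10.03 to Mcm6. That span was 1.64-fold with PDGFA and 1.81-fold with FGF1. Mcm2 had 16.04 [12.3 to 19.8], 19.9 [10.9 to 28.9] and 17.1 [11.6 to 22.5] FPKM, and Mcm5 had 10.03 [7.59 to 12.5], 12.5 [6.82 to 18.2] and 10.8 [7.21 to 14.3]. Their PDGFA values were 1.24-fold and 1.25-fold the starved ones. The log2 fold, here always of FPKM + 0.5, had a median over the 9 licensing genes of 0.16 with PDGFA and 0.08 with FGF1. In each comparison 7 of 9 had the higher value with the ligand.

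Gins2 had the largest log2 fold with either ligand, 0.45 with PDGFA and 0.24 with FGF1. Its levels were 18.1 FPKM [8.65 to 27.6], 24.9 [1.34 to 49.9] and 21.5 [8.46 to 34.6], so the intervals overlapped widely. At the low end, Cdc6 had 1.62 [1.12 to 2.13], 1.34 [0.512 to 2.18] and 1.56 [0.935 to 2.19]. Cdt1, its partner in loading, stood higher, at 5.604, 6.34 and 6.22 FPKM.

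The DNA synthesis genes held both the highest and some of the lowest levels. Rrm1 and Rrm2 encode the large and small subunits of ribonucleotide reductase, which makes deoxynucleotides. Rrm1 stood at 41.1 FPKM [31.9 to 50.2], 42.96 [23.4 to 62.5] and 41.8 [28.7 to 54.8], above 83.8% of compared rows in starved cells. Rrm2 stood at 38.6 [28.7 to 48.3], 38.2 [20.2 to 56.03] and 40.8 [27.04 to 54.5]. In starved cells the subunits differed by 1.06-fold. The sliding clamp gene Pcna followed with 25.98, 28.5 and 27.96 FPKM. The genes of the polymerase alpha-primase complex were lower: Prim1 had 6.62 [4.35 to 8.89], 5.73 [2.51 to 8.94] and 6.202 [3.702 to 8.695], and Pola1 3.13 [2.35 to 3.92], 2.63 [1.29 to 3.97] and 2.79 [1.81 to 3.76]. Tyms, the thymidylate synthase gene, had 4.17, 4.22 and 4.45, and Uhrf1, which recruits the maintenance DNA methyltransferase, 8.88, 9.57 and 8.903. The median log2 fold of the 7 genes was 0.01 with PDGFA and 0.02 with FGF1.

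The transcription factor genes E2f1 and Foxm1, which drive the S phase and the mitotic set, were expressed in each group. E2f1 had 13.98 FPKM [10.4 to 17.5], 15.9 [8.59 to 23.3] and 15.02 [9.99 to 19.9]. Foxm1 had 11.3 [8.74 to 13.8], 12.7 [6.64 to 18.7] and 11.3 [7.62 to 15.04]. Both intervals with a ligand covered the starved value.

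Among cyclins, Ccne1, of the cyclin that opens S phase with CDK2, had the highest level: 20.3 FPKM [14.8 to 25.8], 21.3 [11.4 to 31.3] and 19.4 [12.6 to 26.1]. Its relative Ccne2 was 5.12-fold lower in starved cells, with 3.97 [1.81 to 6.13], 3.096 [0 to 7.28] and 3.701 [0.667 to 6.73], and had the lowest log2 fold with PDGFA, −0.31. Ccna2, used in both S phase and mitosis, had 18.2, 18.4 and 17.8 FPKM. Of the mitotic cyclins, Ccnb2 had 14.1, 14.7 and 14.5, and Ccnb1 5.35 [3.73 to 6.94], 5.92 [2.88 to 8.95] and 6.12 [3.86 to 8.35]. Their kinase gene Cdk1 had 16.3 [12.3 to 20.3], 16.5 [8.84 to 24.2] and 17.2 [11.5 to 22.8]. The median log2 fold of the 6 genes was 0.04 with PDGFA and 0.00 with FGF1.

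Of the mitotic kinase and checkpoint genes, Cdc20, whose product activates the anaphase-promoting complex, had the highest level. It stood at 23.8 FPKM [11.2 to 36.4], 29.9 [4.37 to 55.5] and 26.4 [7.79 to 45.01], with log2 folds of 0.32 and 0.15. The kinase genes Aurka and Plk1 had 13.1 and 12.9 FPKM in starved cells, 14.2 and 14.4 with PDGFA and 12.6 and 13.49 with FGF1. Aurkb, the kinase of the chromosomal passenger complex, had 8.43, 9.71 and 9.07. The checkpoint kinase genes Bub1b and Bub1 were lower, with 7.502, 7.51 and 6.95, and 4.68, 4.25 and 4.42. The median log2 fold was 0.14 with PDGFA and 0.01 with FGF1.

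The 4 spindle genes showed the narrowest range with FGF1, from −0.07 for Kif11 to −0.02 for Kif23. Kif20a, a cytokinesis kinesin, had 14.95 FPKM [6.15 to 23.7], 16.2 [1.48 to 30.8] and 14.7 [3.85 to 25.6]. Tpx2, an activator of Aurora A on spindle microtubules, had 14.4, 15.6 and 13.8, Kif23 8.401, 8.44 and 8.28, and Kif11 7.14, 6.55 and 6.803.

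The centromere and chromosome genes were the role with the lowest median under FGF1, −0.15, and 5 of 6 had the lower value there. Mki67, the gene of the Ki-67 proliferation antigen, had 7.01 FPKM [5.496 to 8.53], 5.98 [3.27 to 8.71] and 5.45 [3.64 to 7.27]. Its log2 folds were −0.21 with PDGFA and −0.34 with FGF1, the lowest of the 40 with FGF1. The kinetochore genes Cenpf and Cenpe came next, with 2.23 [1.695 to 2.77], 1.98 [1.01 to 2.94] and 1.78 [1.15 to 2.404] for Cenpf, and 4.78 [3.68 to 5.87], 4.78 [2.52 to 7.06] and 4.21 [2.74 to 5.66] for Cenpe. Top2a, which untangles sister chromatids, had 22.4 [17.5 to 27.3], 20.4 [11.1 to 29.8] and 20.3 [13.9 to 26.6]. Birc5, of the passenger protein survivin, had 20.7, 23.3 and 20.5, and Cenpa, the centromeric histone gene, 13.6 [9.001 to 17.5], 16.5 [8.23 to 24.7] and 13.9 [8.26 to 19.5]. Mki67, Cenpf and Cenpe have the 3 longest transcripts of the 40, 10061, 11130 and 7910 nt, and the fold with FGF1 was lower in longer transcripts over all rows (Spearman −0.25, 11466 rows that share the same libraries). When a smooth trend on GC content, length and level was taken out over all rows, these 3 genes had log2 folds with FGF1 of −0.24, −0.13 and −0.08. The median of the role was then −0.10, with 5 of 6 below the starved value. The part of length alone was not tested.

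**Figure D3:**
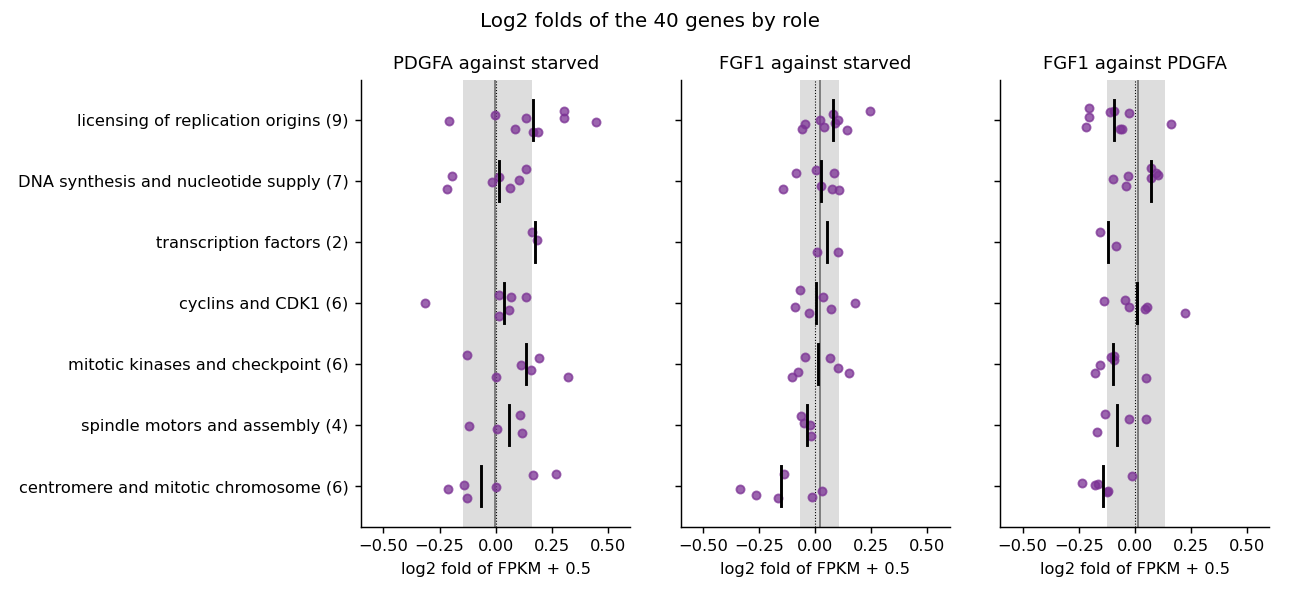
Log2 folds of FPKM + 0.5 for each gene (points) by role, with the role's median (black bar), in the 3 comparisons; the grey band spans the middle 50% of all compared rows and the grey line is their median. The role medians run from −0.06 to 0.17 with PDGFA, and the centromere genes lie lowest with FGF1.

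Over the 40 genes, the median log2 fold with PDGFA was 0.08, with 28 genes above and 12 below the starved value, beside a median of −0.003 and 49.3% above and 50.6% below over all compared rows. With FGF1 it was 0.01, with 21 above and 19 below, beside 0.02, 56.0% and 43.3%. With FGF1 set against PDGFA it was −0.09, with 10 genes higher and 30 lower, beside 0.01, 53.1% and 46.9%. The lowest there were Cenpa (−0.24), Mcm2 (−0.22) and Gins2 (−0.20), and the highest Ccne2 (0.22), Cdc6 (0.16) and Prim1 (0.10). These 3 comparisons share their groups pairwise, so a low starved or a high PDGFA value enters more than 1 of them. Quantile normalization brought the counts with PDGFA to 21 above and 19 below, and the counts with FGF1 to 18 and 22. It shifted the median of all rows with PDGFA to −0.07.

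The differences with PDGFA moved with base composition. Of the 20 genes at or above the median transcript GC content of 48.3%, 19 had a PDGFA value above the starved one, and of the 20 below it 9 had. The median log2 folds were 0.16 and −0.002. Across the 40 genes the Spearman correlation of the fold with GC content was 0.75, and over 11466 compared rows of at least 200 nt it was 0.61. With FGF1 these were 0.58 and 0.18. The correlations are across genes measured in the same libraries and describe those libraries. Gins2, Mcm2, Mcm5 and Cdc20, the 4 largest log2 folds with PDGFA, have GC contents of 53.4%, 55.5%, 51.9% and 55.6%, and Ccne2, the lowest, has 35.7%. When a smooth trend on GC content, length and level was taken out over all rows, 34 of 40 lay above the starved value with PDGFA, with a median of 0.10, and 48.6% of all rows did. Cenpa then had the largest log2 fold, 0.39, and Cdc6 the lowest, −0.13. With FGF1, 20 of 40 lay above, and with FGF1 against PDGFA 5 of 40. None of the 40 was called after this step either.

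**Figure D4:**
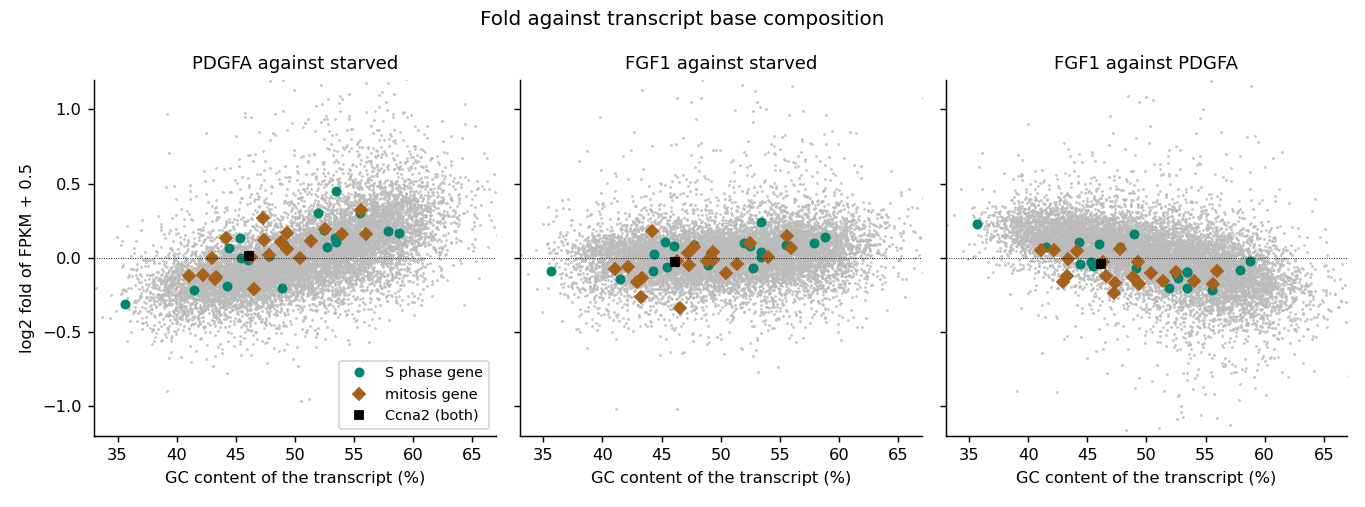
Log2 fold of FPKM + 0.5 against the GC content of the transcript for compared rows of at least 200 nt (grey; rows with larger folds or more extreme GC content fall outside the axes) and for the S phase genes, the mitosis genes and Ccna2 (coloured). With PDGFA the coloured points climb from the AT-rich Ccne2 at the lower left along the slope of the grey cloud.

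The log2 folds of genes with CHR and of genes with an E2F word overlapped. With PDGFA the median log2 fold was 0.02 over 13 CHR genes, ranging from −0.21 to 0.32, and 0.10 over 9 E2F genes, ranging from −0.21 to 0.30. With FGF1 the medians were −0.02 and 0.04. Cdk1 is in both sets, and no test was made.

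Some rows are less certain than others. For 6 genes the deposited locus also held another gene's row: Ccna2 with Exosc9, Ccne2 with Ints8, Cdc20 with Elovl1, Gins2 with Gse1, Kif20a with Brd8 and Cdc23, and Mcm7 with 3 microRNA hairpins. This was so for 17.5% of all compared rows. Apart from Mcm7, these genes had the 5 widest intervals of the 40 in starved cells, with half-widths of 37.1% to 58.8% of the FPKM, against 21.6% to 34.3% for the 34 genes alone in their locus. Gins2, on chromosome 8, had a row spanning 100210 bases (chr8:120488866-120589075, mm10) where the RefSeq gene covers 7810. Strand handling in the counting is not given in the sources used here, so reads of such overlapping genes may not have been told apart. Mcm7 and Cdc20 of these, and Ccnb1, Pcna and Uhrf1 beside them, share 20% or more of their 31-base words with transcripts of other genes (37.6%, 27.4%, 46.9%, 38.0% and 28.5%), and their levels are uncertain. Foxm1, alone in its locus, had a row spanning 22151 bases where the RefSeq gene covers 12893. It shared 19.8% of such words, just under that limit, so its level is uncertain too. Without the 6 genes in shared loci, 23 of 34 lay above the starved value with PDGFA and 18 of 34 with FGF1. Without the 5 genes with shared words, 23 of 35 and 16 of 35 did, and the median with FGF1 went from 0.01 to −0.02.

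No call was made in the other S phase and mitosis genes. Over all compared rows 0.308% were called with PDGFA and 0.555% with FGF1. At those shares a count of 0 is near the background and says nothing particular about these lists. Of 46 other S phase genes 0 were called with either ligand, and the medians were 0.00 with PDGFA and −0.03 with FGF1. With PDGFA 24 of them lay above and 22 below the starved value, and with FGF1 19 and 27. Of 61 other mitosis genes 0 were called, with medians of −0.03 and −0.02. With PDGFA 27 lay above and 34 below, and with FGF1 22 and 39. The extremes with PDGFA were Pold1, the catalytic subunit of polymerase delta, at 7.16 FPKM [5.38 to 8.93] in starved and 10.4 [5.37 to 15.4] in PDGFA cells, and Rfc3, a clamp loader subunit, at 13.1 [8.49 to 16.3] and 10.1 [4.76 to 15.4]. With FGF1 they were Dscc1, which reached 1 FPKM only in FGF1 cells (0.894 in starved, 1.30 in FGF1 cells, log2 fold 0.37), and Gins3 (−0.33). Among the other mitosis genes they were Cdc25c (0.37) and Ckap5 (−0.30) with PDGFA, and Ube2s (0.32) and Aspm (−0.24) with FGF1. All their intervals overlapped.

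Upstream of these genes, the E2F, RB and DREAM regulators had 0 of 17 compared genes called, again near the background. Their medians were −0.10 with PDGFA and 0.02 with FGF1. The repressive E2f4 had 21.96, 26.1 and 23.8 FPKM, and its partner Rbl2, the p130 gene, 9.67, 8.84 and 8.85. Mybl2, the B-MYB gene, had 2.09, 2.58 and 2.27, and the MuvB gene Lin52 3.73, 2.73 and 3.83. Lin52 had the lowest log2 fold of the list with PDGFA (−0.39), and Tfdp2 (−0.13) had it with FGF1.

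Of 14 compared G1 regulators 1 was called, and only with FGF1, where 0.555% of all compared rows were. Myc, an early growth factor target that promotes cell cycle entry, was called higher, 2.04-fold, with FGF1, from 26.1 FPKM [20.5 to 31.8] to 53.4 [36.99 to 69.9]. With PDGFA it stood at 41.1 [21.6 to 60.6], an interval that overlapped both others. The D-type cyclin genes were among the higher of the list in each group: Ccnd1 had 139 [107 to 172], 136 [67.5 to 205] and 151 [102 to 200], Ccnd2 244, 240 and 242, and Ccnd3 132, 137 and 137. The CDK inhibitor Cdkn1a had 461 [345 to 578], 540 [236 to 844] and 579 [374 to 783], and Cdkn1c 71.6 [55.7 to 87.5], 141 [56.6 to 225] and 76.6 [50.96 to 102]. Cdk6 had the lowest log2 fold of the list with either ligand, −0.34 and −0.19.

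By contrast, 9 of 12 immediate early genes were called higher with PDGFA and all 12 with FGF1. Over all compared rows 0.308% and 0.538% were called higher. The median log2 folds of the list were 2.42 and 2.67. It was chosen with earlier results of these data known. Fos, an AP-1 subunit, had 2.62 FPKM [1.69 to 3.56] in starved, 6.76 [3.07 to 10.4] in PDGFA and 10.2 [6.44 to 14.1] in FGF1 cells, and was called with FGF1 only. The difference between ligands in Fos was not called. No palatal mesenchyme marker of 10 compared was called with either ligand, with medians of −0.05 and −0.16, and neither was any of 10 reference genes, with medians of −0.03 and 0.15. Among skeletal muscle markers Acta1 and Actc1 were called higher with PDGFA, and Actc1 was called lower with FGF1 than with PDGFA. All 7 compared muscle markers had the higher value with PDGFA, with a median log2 fold of 0.96. All 7 were lower with FGF1 than with PDGFA, with a median of −1.09. The summed level of the 9 markers was 24.4 FPKM in starved, 111 in PDGFA and 31.5 in FGF1 cells. The summed epithelial level was 3.85, 6.07 and 4.96, the endothelial 3.59, 4.28 and 3.78, and that of glia and neuron markers 39.2, 51.6 and 46.9, most of it Tubb3. The part of other cell types in the values of the 40 genes was not tested.

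**Figure D5:**
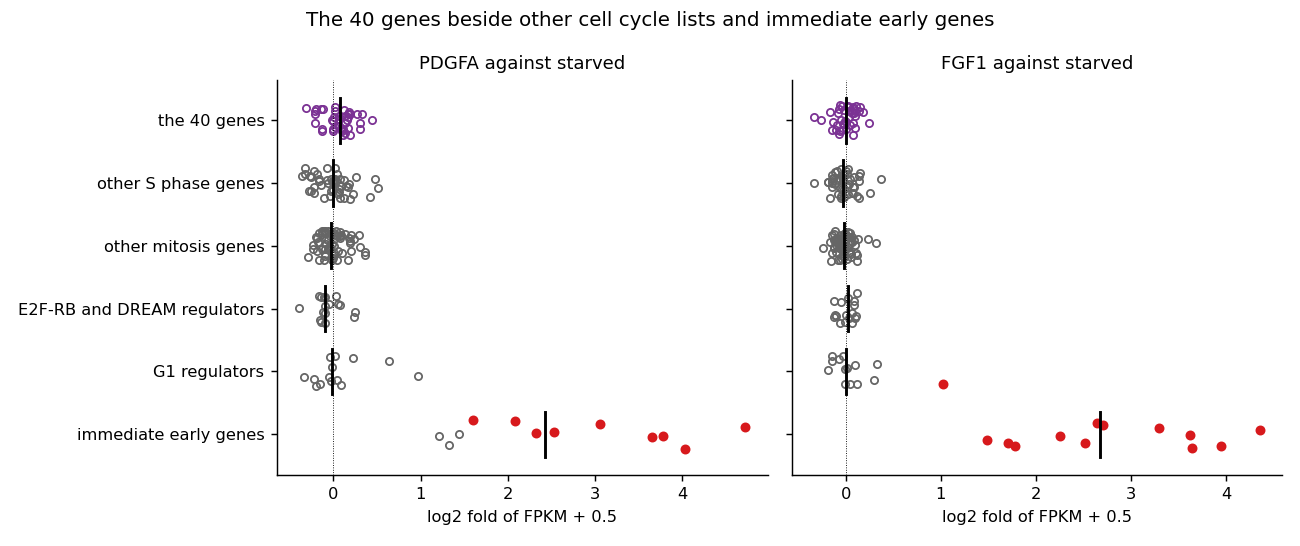
Log2 folds of FPKM + 0.5 against starved cells for the 40 genes, 4 other cell cycle lists and immediate early genes; filled points have intervals apart from the starved ones, open points do not, and bars are medians. The 40 genes and the other S phase and mitosis genes gather around 0, while the immediate early genes have medians of 2.42 with PDGFA and 2.67 with FGF1.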

How the data were processed

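PolyA RNA of 11 libraries in 3 groups was sequenced. The authors deposited 1 FPKM value per gene row and group and the bounds of its interval, per the file headers. CASAVA, TopHat and Cuffdiff were used with mm10, per the submitters' processing notes. Versions, settings and the bounds' confidence level are unknown here. FPKM is scaled to library total and transcript length, so values within a group depend on one another. The 40 genes and all lists were chosen with earlier results of these data known.

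The planned limma test needs values per library, so the interval rule of the design was used. It also required each FPKM to lie inside its own interval. RefSeq accessions named 22988 of 23286 rows (GRCm38.p6, which is mm10), GENCODE M21 named 130, and 168 stayed unnamed. All 40 loci overlapped their RefSeq gene. Log2 folds used a pseudocount of 0.5, which understates the change of low genes. GC content and length came from GENCODE M21 transcripts, for 98.95% of compared rows. The trend was a robust cubic regression. Named genes were all 40, and in each other list those called and the extremes; further genes of the regulator and G1 lists were named after their values were seen. Steps were tested on simulated data. Scripts ran under Python 3.11.15 with statsmodels 0.14.6 for the trend, scipy 1.17.1 for correlations, numpy 2.4.6, matplotlib 3.10.9 for figures and pandas 2.3.3.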

Additional observations from a re-analysis of the deposited data

How the results depend on the processing

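The count of called genes among the 40 was 0 in each comparison under every alternative run: no minimum or a minimum of 5 FPKM, median-of-ratios scaling, quantile normalization, the trend removed, a 2-fold minimum, no condition on the value, z values made from the intervals taken as 95% bounds (adjusted p under 0.05), and, chosen after seeing the data, without genes sharing sequence or a locus. Counts over all rows moved more. For PDGFA against starved cells, 36 called rows became 107 (33 higher, 74 lower) with quantile normalization and 122 with z values. For FGF1 against PDGFA, 14 called rows (3 higher, 11 lower) became 8 (3 and 5) with no minimum or a minimum of 5 FPKM, 73 (64 and 9) with quantile normalization, 31 (18 and 13) with the trend removed and 105 (5 and 100) with z values. The cause was not tested. Of the 40 genes, 10 were higher with FGF1 than with PDGFA; this became 5 of 33 at a minimum of 5 FPKM, which 7 genes did not reach, and 5 of 40 with the trend removed. The median log2 fold ranged from 0.01 to 0.11 with PDGFA, from −0.02 to 0.02 with FGF1 and from −0.11 to −0.04 between ligands. No paired analysis was possible because the table holds 1 value per group, and for the same reason no library could be left out. The unknown depth and the wide PDGFA intervals, whose half-width over the 40 genes had a median of 48.1% against 25.3% in starved and 34.9% in FGF1 cells, limit what could be detected.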

Other observations

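The same words divided the wider lists. CHR stood in 33 of 52 other mitosis genes with a promoter window (63.5%) and in 7 of 35 other S phase genes (20%). Of all genes with a window 20.2% held it, near the share of the other S phase genes. An E2F word stood in 11 of 35 other S phase genes (31.4%) and in 4 of 52 other mitosis genes (7.69%). Of all genes with a window 2.6% held one. Among 14 E2F, RB and DREAM regulators with a window, 6 held an E2F word and 6 held CHR. Of 7 immediate early genes with a window, 0 held an E2F word and 1 held CHR. These are matches of letters within 300 bases and were not set against binding data.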
